A study of Rattus norvegicus with 12 samples.

Results

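The interferon response genes described here are 37 rat genes chosen by name. They comprise interferon receptor chains, the transcription factors that act downstream of them, sensors of foreign RNA, antiviral effectors, the ISG15 system and the immunoproteasome. Of the 37 genes, 35 had a named probe on a rat bead array that names 13336 genes, and 32 had a probe bright enough to be tested, among 7437 tested genes. The expression of Rsad2 and Xaf1 was not analysed here. Isg15, Ifit3 and Irf8 had probes that rose above background on 0 of 12 arrays, and these 5 genes enter no count of expression below. Each gene was read from 1 probe, the one with the highest mean signal over the 12 arrays.

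The arrays held left ventricular RNA of Wistar rats that had been injected through a tail vein with adeno-associated virus (AAV) serotype 9. The vector under study carried human VEGF-B, a vascular endothelial growth factor (AAV-VEGF-B, 6 hearts), and the comparison vector carried human serum albumin (AAV-HSA, 6 hearts). Within each vector, 3 hearts came from males after 4 months of expression and 3 from females after 2 months, and the males had been injected a second time, so that sex, time and number of injections cannot be told apart. All 12 hearts had therefore received virus, uninjected hearts were not analysed here, the VEGF-B isoform is not given per heart, and the promoter that drives the transgenes is not given in the sources used here.

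Type I interferons are secreted by cells that have sensed foreign nucleic acid. Interferons bind receptors that signal through JAK kinases to STAT and IRF transcription factors. These factors activate interferon-stimulated genes through the interferon-stimulated response element (ISRE) or the gamma-activated site (GAS). Many of the induced proteins bind viral RNA, block entry or release of virus, or raise the presentation of peptides on MHC class I, and heart muscle, endothelium and resident macrophages are all able to respond.

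Between 9194 and 9800 probes were above background in AAV-VEGF-B hearts and between 8827 and 9489 in AAV-HSA hearts, out of 22517, and the 12 arrays correlated at 0.988 to 0.995. All 9 cardiomyocyte markers with a named probe were above background on all 12 arrays. Levels below are normalized log2 signals, a change is the AAV-VEGF-B mean minus the AAV-HSA mean on that scale, and a gene was called where limma's adjusted p was under 0.05 over 10281 tested probes.

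Does VEGF-B gene transfer alter interferon response genes in the heart? In AAV-VEGF-B hearts 4 of the 32 tested genes rose and 0 fell. The 4 were Ifit1, an effector that binds foreign RNA, Cmpk2, a mitochondrial nucleotide kinase, Nmi, a partner of STAT proteins, and Ifitm3, which blocks virus entry at the endosome. Over all probes, 4.17% were called higher (429) and 1.03% lower (106). The other 28 genes did not pass the test, although 30 of the 32 changes were above 0, against 43.8% of all tested probes, and the median change of the 32 genes was 0.21 against -0.02 for all probes. At an unadjusted p under 0.05, 12 of the 32 genes were higher and 0 lower, against 10.6% and 9.38% of all probes. Of the 21 genes above background on all 12 arrays 3 were called higher, against 4.51% of such probes. Without background correction, or with the deposited log2 values, 7 of the 32 genes were called. Over all probes these settings called 495 and 496 higher and 175 and 179 lower. Scaling each array by its median instead of quantile normalization called 11 of the 32 genes and turned the split over all probes into 842 higher and 27 lower.

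Ifit1 (probe ILMN_1355901) was close to background with AAV-HSA. Its levels were 7.18, 6.40 and 6.41 in AAV-VEGF-B males and 6.43, 5.90 and 5.85 in AAV-VEGF-B females, against 6.07, 5.22 and 5.15 in AAV-HSA males and 5.06, 5.22 and 5.15 in AAV-HSA females. Detection above background was reached on 6 of 6 arrays with AAV-VEGF-B and on 1 of 6 with AAV-HSA, so that most of the AAV-HSA levels lie at the floor of the array. One AAV-HSA male overlapped the AAV-VEGF-B range and the other 5 AAV-HSA hearts lay below it. The change was 1.05 (SE 0.21), which is 2.07-fold on the normalized scale, with an adjusted p of 0.0084, and 0.51 without background correction or with the deposited log2 values. In females the AAV-HSA probe was not well above background on any array. There the AAV-VEGF-B level was at least 1.21-fold higher when measured against the lowest signal that counts as above background on each array. That bound carries no error estimate, and Ifit1 was not called in females (limma, adjusted p = 0.069), so a rise in females was not established.

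Cmpk2 (probe ILMN_1371316) lies beside Rsad2, the gene of the antiviral protein viperin, on chromosome 6. Its levels were 7.76, 7.89 and 7.78 in AAV-VEGF-B males and 7.51, 7.66 and 8.04 in AAV-VEGF-B females, against 7.01, 6.49 and 7.30 in AAV-HSA males and 7.12, 7.18 and 7.11 in AAV-HSA females. The 6 hearts given AAV-VEGF-B all exceeded the 6 given AAV-HSA. The change was 0.74 (SE 0.13, adjusted p = 0.0028).

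Nmi (probe ILMN_1368184) encodes an interferon-inducible protein that binds N-myc and STAT proteins. It measured 7.22, 7.18 and 7.50 in AAV-VEGF-B males and 7.10, 7.15 and 6.97 in AAV-VEGF-B females, against 6.96, 6.12 and 6.46 in AAV-HSA males and 6.30, 6.91 and 6.40 in AAV-HSA females. The groups did not overlap, but the lowest AAV-VEGF-B heart (6.97) and the highest AAV-HSA heart (6.96) almost met. The change was 0.66 (SE 0.14, adjusted p = 0.011).

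Ifitm3 (probe ILMN_1352762) had the smallest spread of the 4. It measured 11.55, 11.61 and 11.60 in AAV-VEGF-B males and 11.43, 11.54 and 11.59 in AAV-VEGF-B females, against 11.35, 11.25 and 11.32 in AAV-HSA males and 10.91, 11.06 and 11.04 in AAV-HSA females. The groups again did not overlap, and the 3 AAV-HSA females were the lowest of all. The change was 0.40 (SE 0.09, adjusted p = 0.013). With Cmpk2, Nmi, Ifitm3 and Irf3, a total of 4 of the 32 genes had non-overlapping groups with AAV-VEGF-B on top, and 0 had AAV-VEGF-B beneath, against 2.96% and 0.982% of all tested probes.

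**Figure D1:**
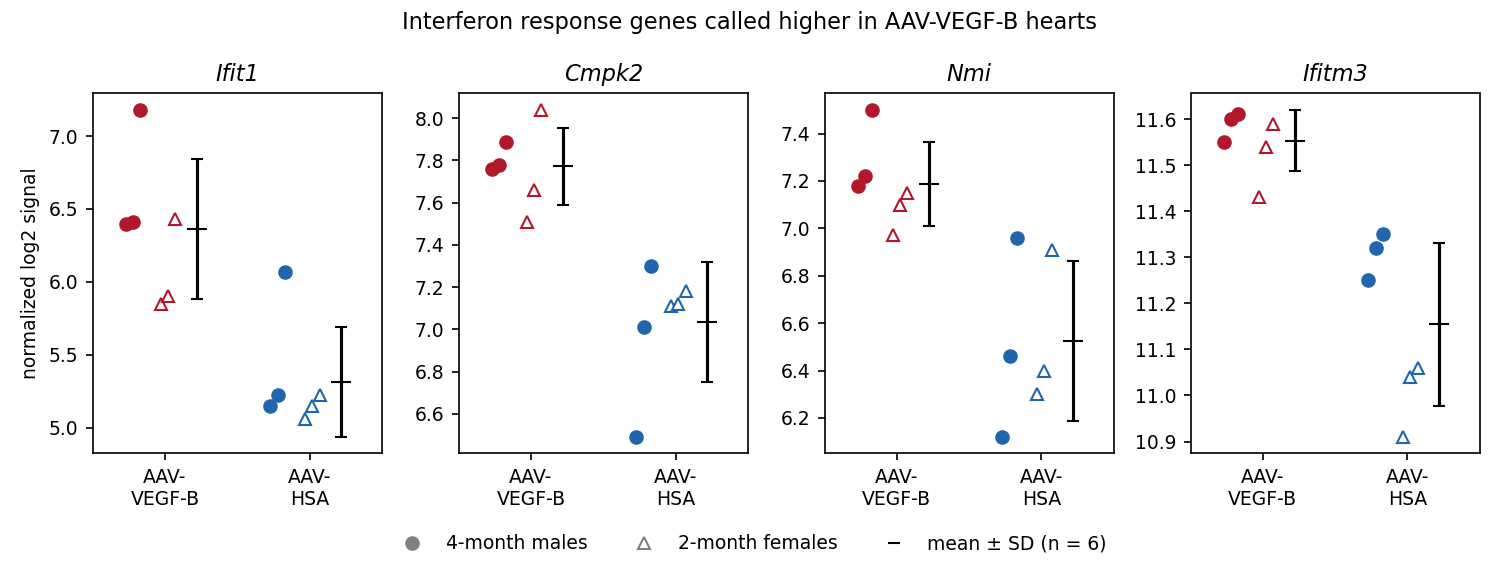
Normalized log2 signal of Ifit1, Cmpk2, Nmi and Ifitm3 in each heart, AAV-VEGF-B on the left and AAV-HSA on the right of each panel, with filled circles for 4-month males, open triangles for 2-month females and bars for the mean ± SD of 6 hearts. The groups do not overlap for Cmpk2, Nmi and Ifitm3, and for Ifit1 a single AAV-HSA male at 6.07 lies within the AAV-VEGF-B range.

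Promoters are shown for the called genes that had one in the RefSeq table and for 2 genes that carry overlapping motifs and were not called. The motif searched was an ISRE core made of GAAA, any 2 bases and GAAA again, or TTTC, any 2 bases and TTTC when read from the other strand, in the 250 bases before each gene's start (rat build GRCr8). Of the 37 genes, whether or not their expression was tested, 29 had a promoter in the table and 14 of these held an ISRE core (48.3%), against 3.41% of all 33469 promoters. Among the tested genes 11 of 25 held it, and among the called genes 2 of 3, since Ifit1 had no promoter in the table. The sequences run 5′ to 3′ toward the gene's start, with ISRE cores in capitals.
Nmi, chr3:56848544-56848793, minus strand: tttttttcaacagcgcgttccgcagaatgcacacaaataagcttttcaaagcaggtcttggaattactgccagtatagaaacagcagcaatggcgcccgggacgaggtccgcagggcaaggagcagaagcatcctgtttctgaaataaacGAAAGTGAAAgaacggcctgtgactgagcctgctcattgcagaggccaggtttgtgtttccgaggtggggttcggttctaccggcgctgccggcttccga
Ifitm3, chr1:205541759-205542008, minus strand: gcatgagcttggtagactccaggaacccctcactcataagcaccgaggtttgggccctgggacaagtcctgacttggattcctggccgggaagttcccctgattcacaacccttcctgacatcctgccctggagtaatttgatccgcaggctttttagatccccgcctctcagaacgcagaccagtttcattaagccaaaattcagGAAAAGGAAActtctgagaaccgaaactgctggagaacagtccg
Cmpk2, chr6:48802600-48802849, plus strand: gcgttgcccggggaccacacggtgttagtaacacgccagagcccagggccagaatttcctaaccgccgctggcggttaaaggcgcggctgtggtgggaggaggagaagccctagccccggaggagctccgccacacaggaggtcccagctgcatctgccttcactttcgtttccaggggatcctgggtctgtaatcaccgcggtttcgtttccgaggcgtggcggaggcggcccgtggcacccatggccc
Oas1a, chr12:41330216-41330465, plus strand: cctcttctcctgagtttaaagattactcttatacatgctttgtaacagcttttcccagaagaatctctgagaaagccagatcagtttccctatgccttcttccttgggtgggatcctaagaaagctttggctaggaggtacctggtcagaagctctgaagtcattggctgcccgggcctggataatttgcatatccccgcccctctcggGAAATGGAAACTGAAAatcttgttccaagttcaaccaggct
Bst2, chr16:18254968-18255217, minus strand: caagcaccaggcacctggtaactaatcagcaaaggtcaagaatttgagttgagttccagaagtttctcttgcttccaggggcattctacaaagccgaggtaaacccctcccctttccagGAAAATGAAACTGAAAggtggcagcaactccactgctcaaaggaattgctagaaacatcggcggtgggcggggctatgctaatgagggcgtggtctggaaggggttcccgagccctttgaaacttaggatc
In Nmi the core begins 100 bases before the start and in Ifitm3 44 bases before it. Cmpk2 rose and holds no match in this window. Oas1a and Bst2 each hold a pair of overlapping cores, at 41 and 35 bases and at 131 and 125 bases before the start, and their changes of 0.13 and 0.09 did not pass the test. The GAS letters TTCNNNGAA, which read the same on both strands, were found in 7 of the 29 promoters (24.1%), against 7.67% of all promoters. A match is a description of the letters and was not tested as a binding site.

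The interferon receptors were represented by Ifngr1, the ligand-binding chain for interferon gamma, and Ifnar1, a chain of the type I receptor. Ifngr1 averaged 10.21 ± 0.13 in AAV-VEGF-B hearts and 9.96 ± 0.09 in AAV-HSA hearts (SD, n = 6 each), and 5 of the 6 AAV-VEGF-B levels exceeded the highest AAV-HSA level. Its change of 0.25 (SE 0.08) did not pass the test (adjusted p = 0.076). Ifnar1 changed by 0.14 (SE 0.10, adjusted p = 0.47) and was above background on 9 of 12 arrays.

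Among the transcription factors, grouped with the partner proteins Nmi and Ifi35, 1 of 7 tested genes rose, against 4.17% of all probes. This was the partner Nmi, and the tested IRF genes and Stat2 did not pass the test. Irf3, the factor that starts type I interferon transcription after RNA or DNA sensing, ranged from 10.42 to 10.54 (median 10.46) in AAV-VEGF-B hearts and from 9.97 to 10.38 (median 10.29) in AAV-HSA hearts. These ranges did not overlap, yet the change of 0.25 (SE 0.08) missed the threshold (adjusted p = 0.092). Stat2 and Irf9, which belong to the complex that binds the ISRE, changed by 0.24 (SE 0.11, adjusted p = 0.24) and 0.08 (SE 0.09, adjusted p = 0.66). Irf1, an early target of interferon gamma, changed by 0.21 (SE 0.12), and Irf7, the amplifier of the type I response, by 0.08 (SE 0.15). Ifi35, which pairs with Nmi, changed by 0.13 (SE 0.10, adjusted p = 0.52). The change of Irf7 was -0.04 without AAV-HSA 2 and -0.03 without AAV-VEGF-B 2.

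Among the genes of RNA sensing and editing 0 of 7 passed the test, 0 had an unadjusted p under 0.05, and the median change was 0.06. These were Ifih1 (MDA5) and Dhx58, helicases that bind double-stranded RNA, Oas1a and Oasl of the oligoadenylate synthetase family, Eif2ak2, the kinase PKR, Adar, an RNA-editing deaminase, and Trim25, a ubiquitin ligase of the RIG-I pathway. Eif2ak2 had the lowest change of all 32 genes, at -0.19 (SE 0.17, adjusted p = 0.57). It averaged 5.72 ± 0.27 in AAV-VEGF-B hearts and 5.91 ± 0.39 in AAV-HSA hearts, and was above background on 6 of 12 arrays. The remaining 6 changes lay between 0.00 and 0.14. The probes of Oas1a and Ifih1 were above background on 4 arrays each and that of Dhx58 on 5, so that most of their levels lie at the floor of the array.

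The antiviral effectors held 3 of the 4 called genes, which is 3 of 10 tested, against 4.17% of all probes. All 10 tested effectors had a change above 0, with a median of 0.45. This depends on the grouping, as Eif2ak2 (-0.19), Oas1a (0.13) and Oasl (0.14) were counted under RNA sensing and not here. The 7 that were not called were Mx2, Ifitm1, Gbp2, Ifit2, Mx1, Ifi27 and Bst2. Ifi27, an interferon-induced membrane protein, ranged from 12.04 to 12.25 (median 12.17) in AAV-VEGF-B hearts and from 11.66 to 12.11 (median 11.82) in AAV-HSA hearts, a change of 0.29 (SE 0.09) that missed the threshold (adjusted p = 0.071, and 0.035 without AAV-HSA 1). Ifitm1, a relative of Ifitm3, changed by 0.55 (SE 0.18, adjusted p = 0.099), and Gbp2, an interferon gamma-induced guanylate-binding GTPase, by 0.50 (SE 0.17, adjusted p = 0.10, and 0.045 without AAV-HSA 4). For these 3 genes every AAV-VEGF-B heart exceeded the AAV-HSA median.

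Ifit2, a relative of Ifit1, was detected above background on 5 of 6 arrays with AAV-VEGF-B and on 1 of 6 with AAV-HSA, and changed by 0.31 (SE 0.10, adjusted p = 0.097). Mx1 and Mx2 are GTPases that trap viral particles. Mx2 varied widely between hearts of a group, with an SD of 0.63 in AAV-VEGF-B hearts and 0.91 in AAV-HSA hearts. It was 7.21, 7.55 and 7.46 in AAV-VEGF-B males and 6.28, 7.48 and 6.16 in AAV-VEGF-B females, against 6.10, 6.05 and 7.91 in AAV-HSA males and 5.85, 6.59 and 5.23 in AAV-HSA females. The highest level thus belonged to an AAV-HSA heart, and the change of 0.73 (SE 0.37) did not pass the test (adjusted p = 0.29). Without that heart, AAV-HSA 5, the change was 1.06 with an adjusted p of 0.048. Mx1 changed by 0.31 (SE 0.19, adjusted p = 0.38) and Bst2, the tetherin that holds budding virus at the cell surface, by 0.09 (SE 0.11, adjusted p = 0.71).

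Of the ISG15 system only Usp18, the protease that removes ISG15 from proteins, could be tested. Its level was 6.02 ± 0.28 in AAV-VEGF-B hearts and 5.95 ± 0.35 in AAV-HSA hearts (SD, n = 6 each), a change of 0.07 (SE 0.16, adjusted p = 0.85).

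The immunoproteasome genes Psmb8, Psmb9 and Psmb10 replace the catalytic subunits of the standard proteasome, and Psme1 and Psme2 form its interferon gamma-induced activator. None of the 5 passed the test, and 1 had an unadjusted p under 0.05. Psmb10 was 10.20, 10.37 and 10.41 in AAV-VEGF-B males and 10.32, 10.89 and 10.21 in AAV-VEGF-B females, against 10.30, 9.93 and 10.05 in AAV-HSA males and 9.86, 10.25 and 9.94 in AAV-HSA females. Its change was 0.35 (SE 0.12, adjusted p = 0.11), and a further Psmb10 probe gave 0.31 (SE 0.12, adjusted p = 0.14). Psmb8 changed by 0.37 (SE 0.21), Psme2 by 0.21 (SE 0.11), Psmb9 by 0.17 (SE 0.14) and Psme1 by -0.10 (SE 0.07). A list of standard proteasome genes held core subunits, the activator gene Psme4 and the assembly factor gene Pomp. Of its 15 tested genes 0 were called or had an unadjusted p under 0.05. Their median change was -0.02 and their changes lay between -0.10 and 0.04. Psmb5, Psmb6 and Psmb7, the catalytic subunits that are replaced, changed by -0.08, -0.01 and -0.03. The difference between the lists was not tested.

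**Figure D2:**
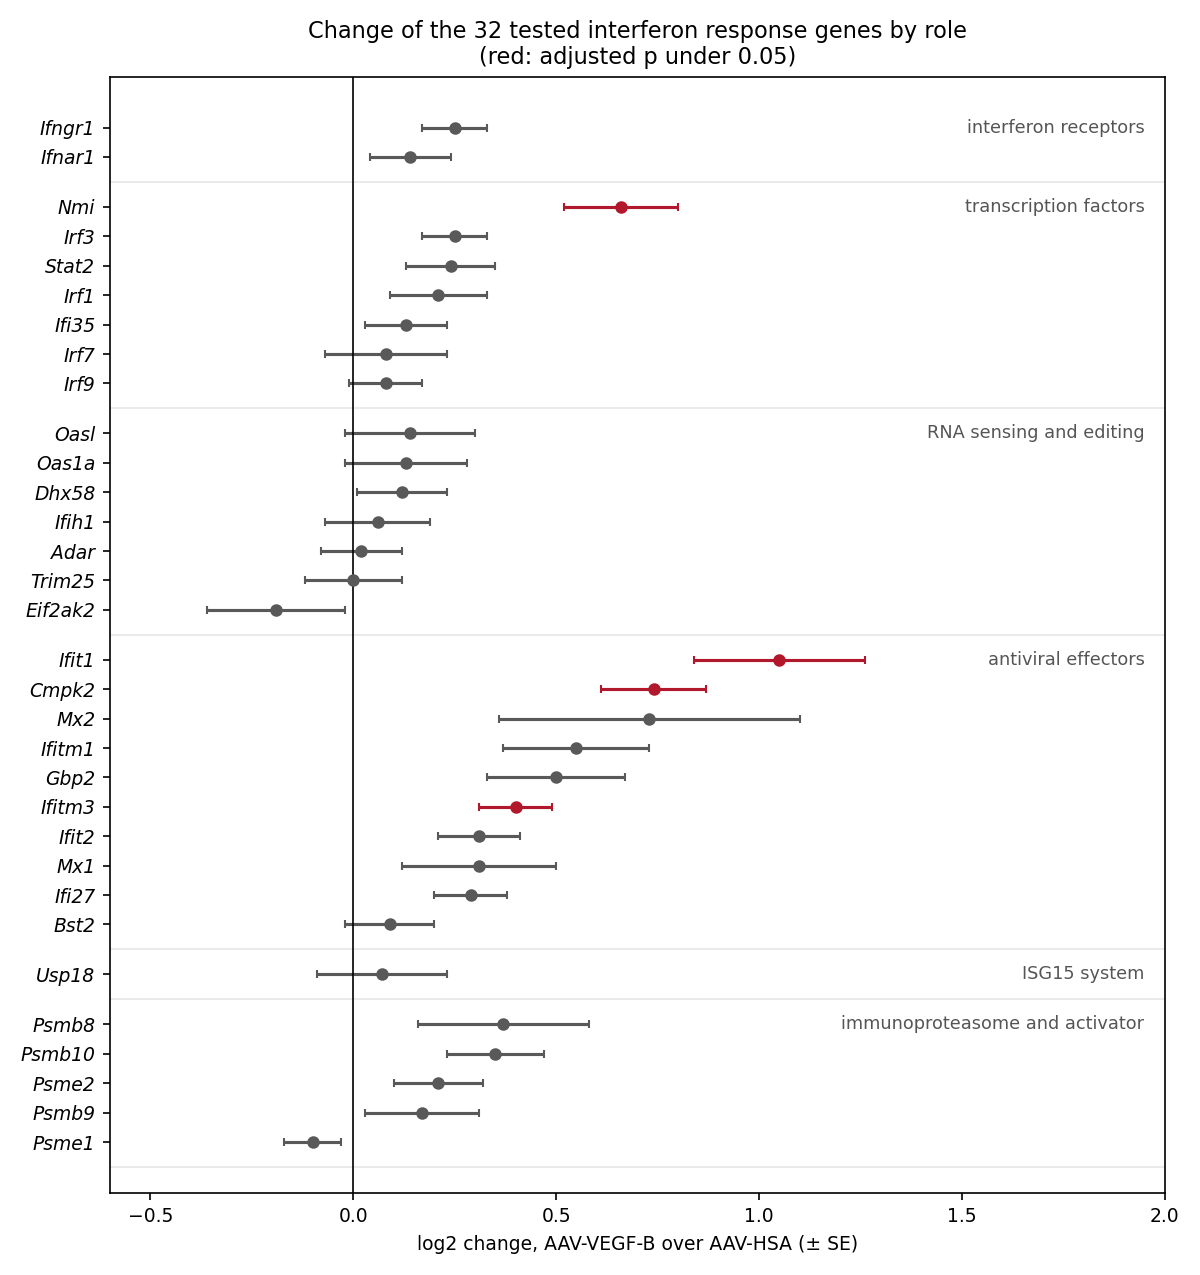
Change of the 32 tested interferon response genes on the log2 scale, AAV-VEGF-B over AAV-HSA, as points with bars of ± SE, grouped by role from receptors at the top to the immunoproteasome at the bottom. Red points mark the 4 genes with an adjusted p under 0.05, and 30 of the 32 points lie above 0.

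The genes upstream of the list and other interferon-induced genes were read from further lists. Of the ligands, other receptor chains and JAK-STAT genes, 9 of 25 could be tested, and 0 were called by limma or had an unadjusted p under 0.05. The interferon probes Ifna4, Ifna5, Ifnb1, Ifng and Ifnk were above background on 0 of 12 arrays, and Ifnar2 and Tyk2 were not analysed here. Jak1, Jak2 and Stat3 changed by 0.05, 0.13 and -0.06. Of the other IRFs and the induction machinery 1 of 8 tested genes rose, against 4.17% of all probes. This was the NF-kappaB subunit gene Nfkb1 (0.48, SE 0.11, adjusted p = 0.022), while Mavs and Tbk1 changed by 0.06 and 0.02.

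Among 32 other tested interferon-induced genes 5 rose and 0 fell, against 4.17% and 1.03% of all probes. Their median change was 0.23. Ifi44 averaged 7.20 ± 0.20 in AAV-VEGF-B hearts and 6.44 ± 0.33 in AAV-HSA hearts (SD, n = 6 each), a change of 0.76 (SE 0.14, adjusted p = 0.0045). Bst1 changed by 0.64 (SE 0.10, adjusted p = 0.0014), Ifi30, a lysosomal thiol reductase of antigen processing, by 0.42 (SE 0.10, adjusted p = 0.023), and Ly6e, a surface protein with a lipid anchor, by 0.59 (SE 0.15, adjusted p = 0.036). Bst1 is an ADP-ribosyl cyclase and is known mainly for that activity rather than for antiviral defence. The fifth was Tdrd7 (0.28, SE 0.08, adjusted p = 0.042). The chemokines Cxcl9, Cxcl10 and Cxcl11, targets of interferon gamma, changed by 0.60 (adjusted p = 0.27), 0.08 and 0.04.

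MHC class I presentation is a main output of the interferon response. Of 14 tested genes 1 rose, RT1-CE7 (0.63, SE 0.13, adjusted p = 0.0076), against 4.17% of all probes. The median change of the 14 genes was 0.27. RT1-CE7 averaged 9.39 ± 0.30 in AAV-VEGF-B hearts and 8.76 ± 0.15 in AAV-HSA hearts (SD, n = 6 each). The rat class I genes are near-identical copies of each other, so a probe may read several of them. B2m, the invariant chain, changed by 0.40 (SE 0.14, adjusted p = 0.12), and Tap1 and Tap2, the peptide transporter, by 0.25 and 0.28. Of the 14 changes 11 were above 0 and 3 below. The 3 were RT1-A2 (-0.48, SE 0.69), RT1-CE16 (-0.32, SE 0.23) and RT1-CE10 (-0.23, SE 0.16), which did not pass the test.

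Markers of some cell types in the ventricle, mainly endothelial ones, moved with the vector as well. Over all probes 4.17% were called higher and 1.03% lower. Of 9 tested endothelial markers 6 were higher in AAV-VEGF-B hearts (Cdh5, Tie1, Tek, Emcn, Icam2 and Esam). The summed signal of the 9 was 10450 to 12610 in AAV-VEGF-B hearts against 7649 to 9571 in AAV-HSA hearts, with no overlap. Of 7 tested macrophage and monocyte markers 1 was higher, Aif1 (0.52, SE 0.13, adjusted p = 0.028), and their summed signal was 1353 to 2126 in AAV-VEGF-B hearts against 1093 to 1711 in AAV-HSA hearts. The macrophage markers Adgre1, Itgam and Fcgr2b were above background on 0 of 12 arrays, and the leukocyte marker Ptprc on 1. Of 5 tested T and NK cell markers 0 were higher and 1, Gzmc, was lower. Cdh5 was above background on 4 of 12 arrays and Gzmc on 5. Most of their levels therefore lie at the floor of the array. Of 9 cardiomyocyte and 6 fibroblast markers 0 were called, and likewise 0 of 2 B cell markers (Cd79b and Cd74) and 0 of 1 dendritic cell marker (Ccr7). Cd79b was above background on 7 of 12 arrays, and Cd74, the MHC class II invariant chain, is not specific to B cells. The cardiomyocyte sum was 134400 to 162400 in AAV-VEGF-B hearts and 140800 to 149900 in AAV-HSA hearts. The part of these shifts in the interferon response genes was not tested. In whole ventricle RNA, more cells of a type and more RNA per cell cannot be told apart.

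**Figure D3:**
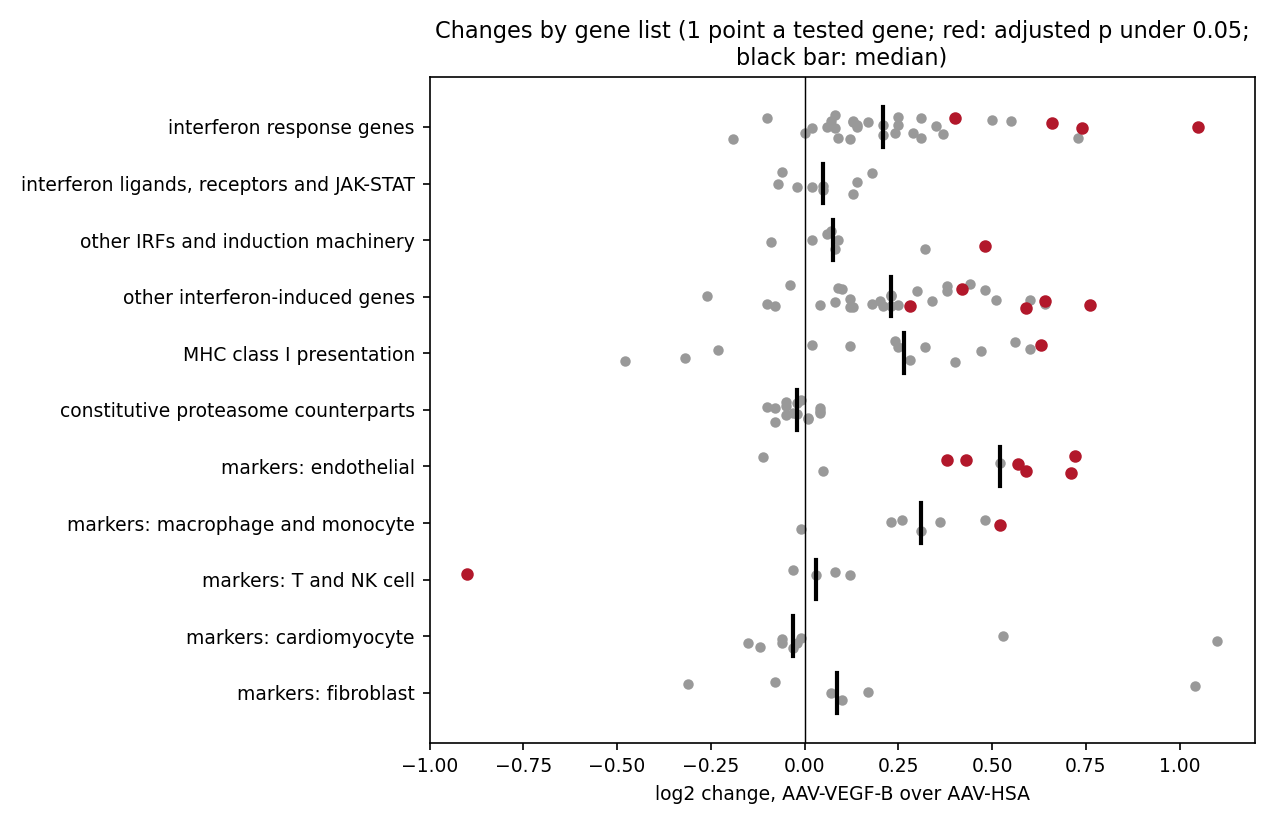
Change on the log2 scale, AAV-VEGF-B over AAV-HSA, of each tested gene in the interferon response list, 5 related gene lists and 5 lists of cell type markers, with a black bar at the median of a list and red points for adjusted p under 0.05. The interferon response genes have a median of 0.21, the standard proteasome genes of -0.02 and the endothelial markers 6 called genes of 9.

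The comparison was repeated within each stratum. In 4-month males 1 of 32 genes rose, Cmpk2 (0.88, SE 0.18, adjusted p = 0.042), and 0 fell, where 0.749% of all probes were called higher and 0.0389% lower. The Cmpk2 call in males was lost when dim probes were kept (adjusted p = 0.072) and when any heart other than AAV-VEGF-B 5 or AAV-HSA 5 was left out (adjusted p up to 0.16), in 11 of 17 alternative settings. Ifit1, above background on 1 of 3 AAV-HSA arrays, changed by 1.18 (SE 0.25, adjusted p = 0.053) and Nmi by 0.79 (SE 0.20, adjusted p = 0.099). In 2-month females 1 of 32 genes rose, Ifitm3 (0.52, SE 0.09, adjusted p = 0.012), and 0 fell, where 2.53% of all probes were called higher and 0.788% lower. There Cmpk2 changed by 0.60 (SE 0.18, adjusted p = 0.089), and Ifit1, for which only the bound of at least 1.21-fold can be given, did not pass the test (adjusted p = 0.069).

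The median change of the 32 genes was 0.18 in males and 0.29 in females, against -0.02 and -0.03 over all probes. The change was above 0 in 25 genes in males (46.3% of all probes) and in 28 in females (45.4% of all probes), and in 23 genes it was above 0 in both strata, against 28.6% of all probes. The 28 include Ifit1, Ifit2, Oas1a and Ifih1, whose probes were not well above background on any AAV-HSA female array. Their female changes are not measured differences, and Ifit1 and Ifit2 are also among the 23. Below 0 in both strata were 2 genes, Eif2ak2 (-0.08 and -0.29) and Psme1 (-0.06 and -0.13). Of the MHC class I genes 3 of 14 were called higher in females (B2m, RT1-A1 and RT1-CE15), and of the macrophage markers 2 of 7 (C1qa and Aif1). There 2.53% of all probes were called higher. The changes were 1.13 (SE 0.27) for RT1-A1, 0.70 (SE 0.18) for B2m and 0.81 (SE 0.18) for C1qa. In males these 3 changed by 0.00, 0.10 and 0.14. Of the 14 class I changes 3 were below 0 in females and 5 in males, where RT1-CE16 changed by -0.71 (SE 0.31, adjusted p = 0.42).

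A test of the difference between the strata called 0 probes and 0 of the 32 genes, although 542 probes (5.27%) had an unadjusted p under 0.05. The smallest unadjusted p among the members was 0.054 for Irf1, which changed by -0.01 (SE 0.14) in males and 0.43 (SE 0.14) in females, and 0.058 for Bst2, which changed by 0.29 (SE 0.14) and -0.12 (SE 0.14). For Cmpk2, called in males, and Ifitm3, called in females, the change was not shown to differ between the strata. The adjusted p of the difference was 0.97 for Cmpk2 and 0.95 for Ifitm3.

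**Figure D4:**
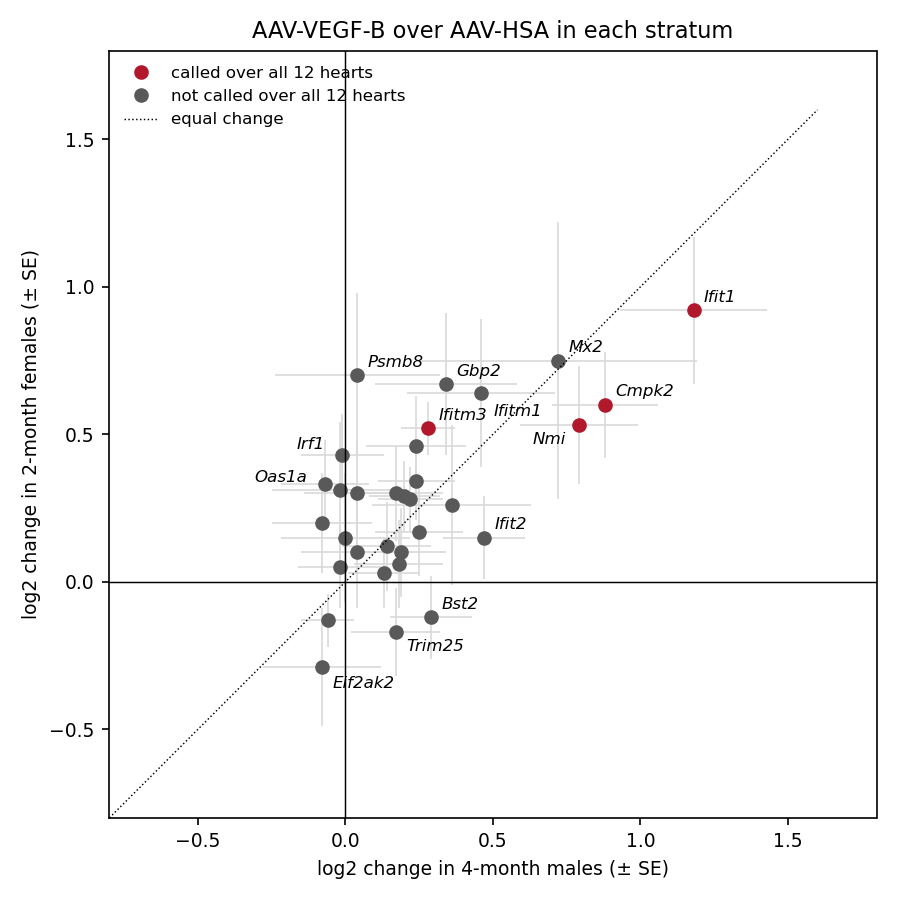
Change of each of the 32 tested genes on the log2 scale, AAV-VEGF-B over AAV-HSA, in 4-month males (horizontal axis) and in 2-month females (vertical axis), with bars of ± SE and a dotted line of equal change. Ifit1, Cmpk2 and Nmi lie to the right of the line, Ifitm3 and Psmb8 above it, and 23 points lie above 0 on both axes. In AAV-HSA females Ifit1, Ifit2, Oas1a and Ifih1 were not well above background on any array, so their vertical positions are not measured differences.

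The strata themselves were then compared over both vectors. Between 4-month males and 2-month females 0 of the 32 genes were called, where 0.447% of all probes were called higher in males and 0.613% lower. At an unadjusted p under 0.05, 5 genes were higher in males and 1 lower, against 8.68% and 7.83% of all probes. The smallest p belonged to Oas1a, which measured 5.88, 5.53 and 5.59 in AAV-VEGF-B males and 5.47, 6.02 and 5.73 in AAV-HSA males, against 5.75, 5.38 and 5.38 in AAV-VEGF-B females and 5.20, 5.23 and 5.09 in AAV-HSA females. The difference was 0.36 (SE 0.11, adjusted p = 0.11), and the probe was above background on 3 of 6 male arrays and 1 of 6 female arrays.

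Usp18 measured 6.25, 6.00 and 6.32 in AAV-VEGF-B males and 5.99, 6.58 and 5.87 in AAV-HSA males, against 5.67, 5.70 and 6.18 in AAV-VEGF-B females and 5.80, 5.92 and 5.55 in AAV-HSA females. It was 0.37 higher in males (SE 0.14, adjusted p = 0.19), and the strata overlapped. Ifitm3 was 0.19 higher in males (SE 0.07, adjusted p = 0.17), Mx2 0.78 (SE 0.33, adjusted p = 0.26) and Ifit1 0.47 (SE 0.18, adjusted p = 0.21). The 1 lower gene was Eif2ak2, with a difference of -0.37 (SE 0.14, adjusted p = 0.21). No gene had all 6 males above or below all 6 females, against 0.827% and 0.681% of all probes.

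The hearts differed in how many of the genes they carried at a high level. AAV-VEGF-B 2, a male, held the highest level for 9 of the 32 genes and was above the 12-heart median in 25 of them, with a median deviation of 0.23. AAV-HSA 2 and AAV-HSA 6, both females, held the lowest level for 10 genes each, and their median deviations were -0.30 and -0.29. The median deviation over all probes was between -0.01 and 0.00 in every heart. The other 9 hearts had median deviations between -0.14 and 0.09. AAV-VEGF-B 3, a female, stood out in the immunoproteasome, with 10.69 for Psmb8 and 10.89 for Psmb10.

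**Figure D5:**
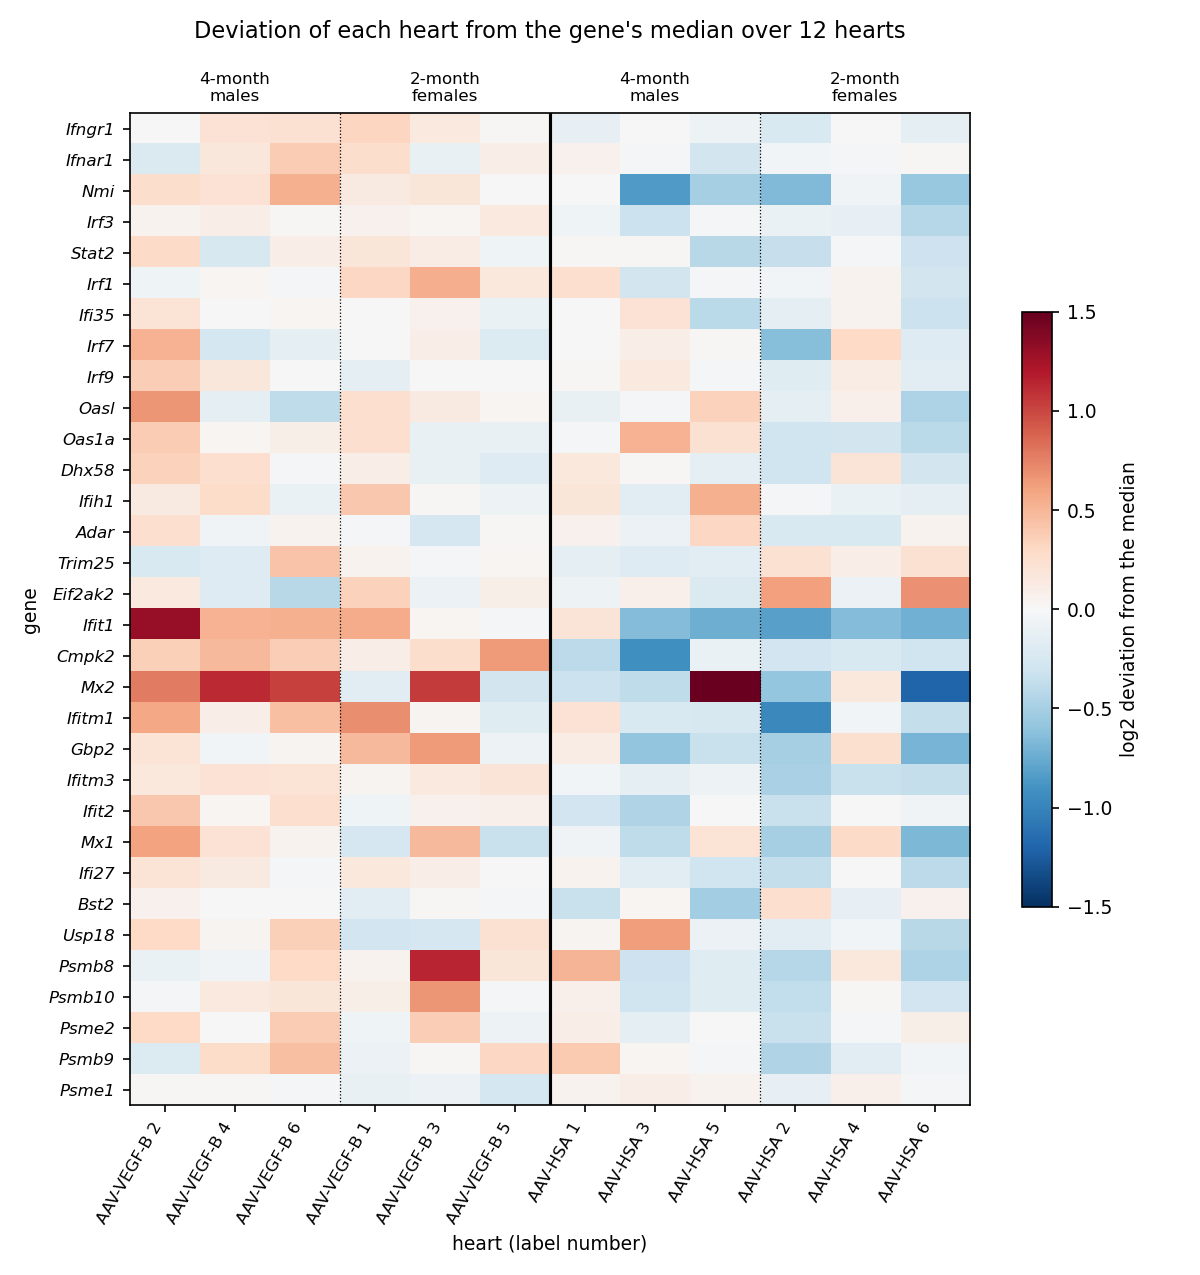
Deviation of each heart from the median of the 12 hearts, for each of the 32 tested genes (rows, ordered by role) in AAV-VEGF-B hearts (columns on the left) and AAV-HSA hearts (columns on the right), males before females within each vector. Red is above and blue below the median on the log2 scale. The columns of AAV-HSA 2 and AAV-HSA 6 are mostly blue, and the Ifit1, Cmpk2, Nmi and Ifitm3 rows are mostly red on the left and mostly blue on the right.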

How the data were processed

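Per the labels and methods, each of the 12 hearts was hybridised to 1 single-colour array. The authors deposited unnormalized probe intensities and, beside every intensity, a detection p-value against negative control beads. Their separate log2 table, which matched plain quantile normalization of these deposited intensities to within 0.005, was used as an alternative. The neqc function of limma 3.58.1 (R 4.3.3) corrected the background by normexp, using detection, added an offset of 16, normalized by quantiles and took log2. A probe was tested if its detection p was below 0.05 on 3 or more of the 12 arrays (10281 of 22517 probes). Models were fitted with lmFit and eBayes, for 2 vectors and for 4 groups of vector by stratum, with Benjamini-Hochberg adjustment at 0.05. The platform annotation gave 13787 probes 1 symbol and 8730 none, and promoters came from RefSeq (GRCr8).

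The genes and lists were chosen with earlier results of these data known. Every gene of the list is described, the called ones by heart, with up to 4 called genes of each other list. Mx2 and Psmb10 by heart, and the uncalled genes of the other lists along with Tdrd7, Cdh5 and Tek, were chosen after their values were seen. In simulated normalized levels of 10281 probes, the vector fit called 76 of 100 changes of 0.5 (log2) and 97 of 100 changes of 1. It also called 10 of 10081 unchanged probes. The simulated spread was that within the 4 groups and held no difference between strata, which the real vector comparison carries. The shares of changes found may therefore be too high for these hearts. Background correction, normalization and the probe filter were not simulated. The number of arrays limits the precision, p-values measure the spread between these hearts, and slide and scan date were not among the sources used.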

Additional observations from a re-analysis of the deposited data

Results flagged for a closer look

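In each vector group of 6 hearts, a level of a tested gene was marked where the highest or lowest heart lay far from the next one relative to the group's range. Of 64 groups 6 were marked, and chance marks about 1 in 20. AAV-VEGF-B 3, a 2-month female, was marked for 2 immunoproteasome genes: Psmb8 was 10.69, with the next AAV-VEGF-B heart at 9.85, and Psmb10 was 10.89, with the next at 10.41. Bst2 was 6.48 in AAV-VEGF-B 1, below the next heart at 6.63. Among AAV-HSA hearts, Ifit1 was 6.07 in AAV-HSA 1, where the next was 5.22 and the other 5 arrays were not well above background. Cmpk2 was 6.49 in AAV-HSA 3, below the next heart at 7.01, and Ifnar1 was 5.56 in AAV-HSA 5, below the next at 5.79.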

How the results depend on the processing

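Over all 12 hearts, Ifit1, Cmpk2 and Nmi were called in every alternative that gave them a value, and 4 genes in all were called in the main setting. Without background correction and with the deposited log2 values 7 genes were called (Irf3, Ifi27 and Ifngr1 besides), and with median scaling 11, where the median change of all probes was 0.08 instead of -0.02. Leaving out each heart in turn gave 4 to 5 genes, where 325 to 416 of all probes were called higher and 50 to 116 lower. With the replicate number as a block 3 were called, because Ifitm3 had an adjusted p of 0.055; hearts that share a number are of opposite sex, their deviations correlated at -0.07 to 0.05, and the block could not be fitted within strata. Requiring all 12 arrays above background gave 3 genes among 21 tested, since Ifit1 was then not tested. In females, 2 genes were called without background correction and with the deposited values, 3 with median scaling, and 1 to 2 with a heart left out, against 1. Over all probes these settings called 334, 339, 607 and 74 to 249 higher, against 260. They called 136, 136, 19 and 8 to 81 lower, against 81. In males the gene counts were 2, 2 and 3, with 0 when dim probes were kept and 0 to 2 with a heart left out, against 1. Over all probes these settings in males called 125, 125, 124, 68 and 7 to 74 higher, against 77. They called 11, 11, 3, 8 and 0 to 6 lower, against 4. The difference between strata and the strata themselves gave 0 genes throughout. Of the 32 changes, 19 kept their sign and side of the threshold, 9 changed side, and 4 that did not pass the test changed sign with a heart left out: Irf7 (-0.04 to 0.15), Usp18 (-0.01 to 0.20), Trim25 (-0.08 to 0.05) and Adar (-0.03 to 0.09). Signal near background limits the dim probes, 11 of the 32. Except where fewer genes were tested, the cause of these shifts was not tested.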
